A study of Caenorhabditis elegans with 15 samples.

Results

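The vitellogenin genes of C. elegans, vit-1 to vit-6, encode the yolk proteins. They were followed here through every probe set of the array whose annotated gene symbols all belong to the family, which gave 10 probe sets of 22625. Of these, 8 name a single gene: 1 each for vit-1, vit-2 and vit-5, 3 for vit-4 and 2 for vit-6. The other 2 name vit-4 and vit-5 together. The 10 probe sets cover 5 of the 6 genes, among 18217 genes named on the array, and no probe set is annotated to vit-3.

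Vitellogenins are large lipid-carrying proteins made in the intestine of the adult hermaphrodite. They are secreted into the body cavity and taken up by growing oocytes through the receptor RME-2, and the yolk feeds the embryo. Their transcription starts as the worm becomes an adult and is among the strongest of any gene in the intestine, under regulators that include UNC-62, ELT-2, MAB-3 and the insulin pathway.

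The arrays measured total RNA of whole worms in 5 groups of 3 arrays each. The wild type, N2, was kept on vehicle (2% DMSO), on rapamycin, an inhibitor of the TOR kinase, or on allantoin, a product of purine breakdown. The eat-2 mutant (strain DA465), which lacks part of an acetylcholine receptor that drives feeding and is used as a model of caloric restriction, was kept on vehicle or on rapamycin. All 15 samples were synchronised worms moved to their plates just before the L4 moult and collected after 72 hours at 20 °C, and every group received the DMSO. There were no arrays of eat-2 mutants on allantoin. Whether the plates held FUDR, which blocks the production of progeny, is not given in the sources used here, nor is whether the 3 samples of a group came from separate cultures, so p-values measure the spread between these samples only. In whole worms, fewer cells of a type and less RNA per cell cannot be told apart.

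Values are log2 signals, so a difference of 1 is a 2-fold difference. They ran from 3.14 to 14.86 over all arrays, array medians lay between 6.79 and 7.05, and the lowest correlation of any array with another of its own group was 0.9669. The N2 controls were the most variable group, with a median SD over all probe sets of 0.21 against 0.0949 to 0.121 in the other groups. The probe set of eat-2 itself read between 5.19 and 5.77 on every array and did not separate the strains, so it is no check of the labels. Differences between pairs of groups were tested with limma on the 6 arrays of the pair over 22548 non-control probe sets, and a probe set is called below when its Benjamini-Hochberg adjusted p over all of them is under 0.05.

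The family sat close to the top of the scale. The highest value of any vit probe set, 14.75 for vit-5 in an eat-2 control, was 0.12 below the highest value of any probe set on any array, and 69 of the 150 vit values were above 14. How far the highest signals are compressed was not tested. The probe sets of vit-4, vit-5 and 1 of those of vit-6 carry names that mark possible binding of related transcripts, and vit-3 and vit-4 lie next to each other on chromosome X in the RefSeq gene table of assembly WBcel235, where vit-1, vit-2 and vit-5 also lie. The gene vit-6 lies on chromosome IV. A reading of vit-4 or vit-5 may therefore hold several members of the family.

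Vitellogenin signal was lowest in N2 worms on rapamycin. All 10 probe sets had a lower mean there than in N2 controls, and 8 of 10 were called lower, for vit-2, vit-4, vit-5, vit-6 and the pair that reads vit-4 and vit-5 together. Over all probe sets 3.67% were called lower and 5.71% higher. The differences of the 10 probe sets ran from -1.65 to -0.65, with a median of -1.44, beside a median of -0.02 over all probe sets tested. The median was -1.26 over the probe sets that name a single gene. Since readings of vit-4 and vit-5 may overlap, the count of probe sets is not a count of genes.

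The yolk protein gene vit-2 encodes one of the larger yolk polypeptides. Its log2 signal was 12.83, 12.37 and 12.97 in the N2 controls and 11.53, 11.64 and 11.68 on rapamycin. All 3 rapamycin arrays lay below all 3 controls. Its level fell by 1.11 on the log2 scale (SE 0.17, limma adjusted p = 0.0264), which is 2.15-fold lower.

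For vit-5, whose product is a yolk polypeptide of the same size class, the controls read 14.55, 14.05 and 14.28 and the rapamycin arrays 12.68, 12.88 and 12.94. Again the groups did not overlap. The difference was -1.47 (SE 0.16, limma adjusted p = 0.0129). The probe sets that name vit-4 and vit-5 together gave -1.53 (limma adjusted p = 0.00936) and -1.59 (limma adjusted p = 0.00728).

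The 3 probe sets of vit-4, a close relative of vit-3 and vit-5, differed from each other. The probe set 172134_x_at read 14.34, 13.91 and 14.06 in the controls and 12.29, 12.51 and 12.55 on rapamycin, a difference of -1.65 (SE 0.14, limma adjusted p = 0.00803) or 3.15-fold, and 171723_x_at differed by -1.55 (limma adjusted p = 0.0176). The third, 172673_x_at, was dim. It read 7.62, 6.57 and 7.10 in the controls and 6.31, 6.52 and 6.51 on rapamycin, so that the groups were apart by 0.05 at their closest arrays, and its difference of -0.65 (SE 0.26) was not called (limma adjusted p = 0.144). Over the 15 arrays this probe set ran from 6.31 to 9.16, whereas the other 2 of vit-4 ran from 12.22 to 14.53.

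The gene vit-6 encodes a precursor that is cleaved into the smaller yolk proteins, and it is the only member outside chromosome X. Its probe set 173411_s_at read 14.36, 13.92 and 14.27 in the controls and 13.31, 13.47 and 13.19 on rapamycin. The other, 190649_at, read 14.14, 13.45 and 13.93 against 12.80, 13.00 and 12.92. Both pairs of groups were apart, with differences of -0.86 (SE 0.15, limma adjusted p = 0.0326) and -0.93 (SE 0.19, limma adjusted p = 0.0396). At 1.81-fold and 1.91-fold they did not reach the 2-fold change that the study's own threshold asks for beside an unadjusted p under 0.05. At that threshold 6 of 10 vit probe sets were lower, beside 3.26% of all.

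The gene vit-1, a close relative of vit-2 in sequence, was the exception. Its 3 rapamycin arrays were close together at 9.48, 9.45 and 9.50, but its N2 controls read 12.40, 11.46 and 8.79, a spread wider than for any other vit probe set in any group (SD 1.9). The third control thus lay below all 3 rapamycin arrays. The difference of -1.41 (SE 0.87) was not called (limma adjusted p = 0.307), and its 95% interval ran from -3.50 to 0.69. Without the third N2 control it was -2.45 and called (limma adjusted p = 0.0357). For vit-2 and the other bright probe sets that array was not the lowest control. The arrays of both groups were apart for 9 of 10 vit probe sets, with vit-1 the exception, beside 20.8% of all probe sets with the rapamycin arrays below the controls.

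**Figure D1:**
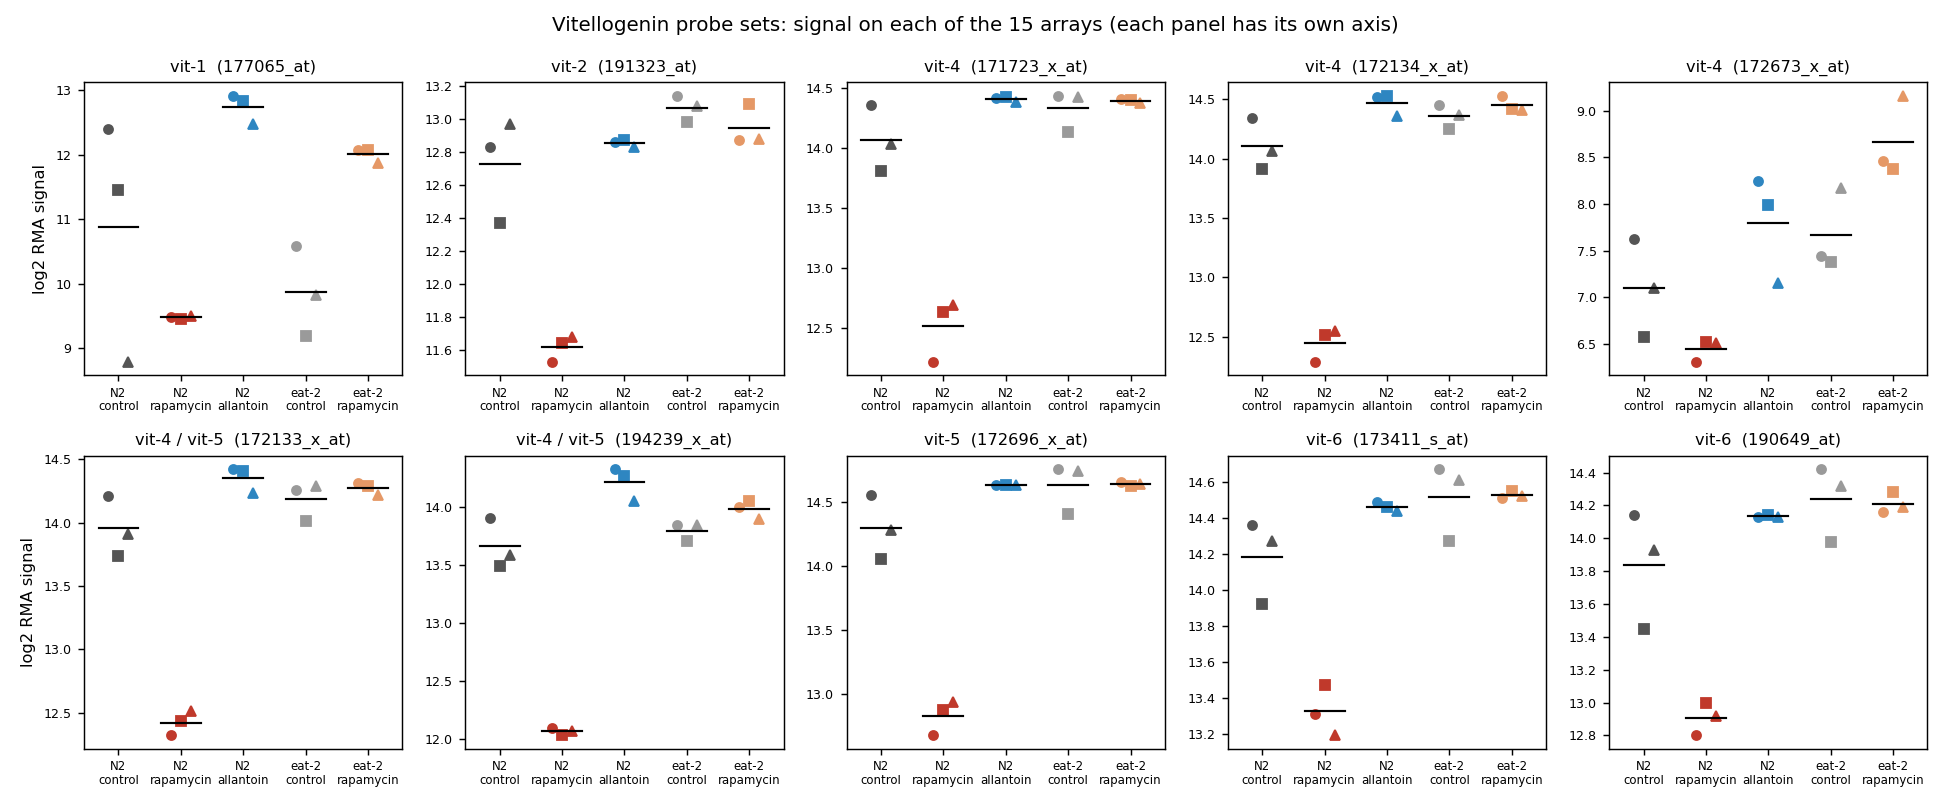
Log2 RMA signal (vertical axis, a separate range for each panel) of the 10 vitellogenin probe sets on each of the 15 arrays, by group along the horizontal axis. Circles, squares and triangles are replicates 1, 2 and 3, and horizontal lines are the means of the 3 arrays. The N2 rapamycin arrays are lowest for 9 of 10 probe sets, while for vit-1 the third N2 control, at 8.79, is lower still.

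The median of these differences changed little when single arrays were left out, and the count of calls changed. The median stayed between -1.51 and -1.20 over the 6 fits that each left out an array, while the difference of vit-1 ran from -0.65 without the first N2 control to -2.45 without the third. The number of vit probe sets called lower was 8 without the first N2 control and 9 without the second, but 5 without the third, 2 without the second rapamycin array and 0 without the first or without the third. It was 0 with unmoderated tests, in which no spread is shared between probe sets, 8 with all 15 arrays in a single fit and 9 with array weights. Calls over the whole array changed too, from 2116 of 22548 probe sets to 1753, 6889 and 325 without N2 control 1, 2 and 3, to 32, 102 and 0 without N2 rapamycin array 1, 2 and 3, to 10 unmoderated, to 7785 in the fit of all 15 arrays and to 6343 with array weights.

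On allantoin the picture was different. No vit probe set was called against the N2 controls, and neither was any other probe set (0% called higher and 0% lower by limma). At an unadjusted p under 0.05, 3 of 10 vit probe sets were higher, beside 9.5% of all. All 10 differences were above 0, from 0.13 to 1.86 with a median of 0.36, where the median over all probe sets was 0.05. The allantoin arrays lay above all controls for 7 of 10 vit probe sets, beside 16.2% of all, with a gap of 0.02 to 0.15 between the closest arrays. The comparisons of rapamycin, of allantoin and of eat-2 with the N2 controls share those 3 control arrays.

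The widest of these differences belonged to vit-1, which read 12.92, 12.83 and 12.48 on allantoin, above its 3 controls, though the first control came within 0.08 of the lowest allantoin array. The difference of 1.86 (SE 0.89, limma adjusted p = 0.29) had a 95% interval from -0.30 to 4.02. The next, 0.55 for 194239_x_at, a probe set of vit-4 and vit-5, had an interval from 0.21 to 0.90 and was not called (limma adjusted p = 0.236). For vit-2 the arrays read 12.86, 12.87 and 12.83 and lay inside the range of the controls. Without the first N2 control, which was above its group mean for 10 of 10 vit probe sets, 5 of 10 were called higher, in a fit that called 4606 of 22548 probe sets. With all 15 arrays in a single fit, 2 were, beside 2519 of all.

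The eat-2 mutants on vehicle showed no called difference from N2 controls in any vit probe set, beside 0.0355% of all probe sets called higher and 0.00443% lower. None had an unadjusted p under 0.05 by limma either, beside 4.76% and 2.83% of all. The means of 9 of 10 probe sets were higher in the mutant by 0.13 to 0.57, and the exception was again vit-1, at 10.58, 9.19 and 9.82 in eat-2 controls, a difference of -1.02 (limma adjusted p = 0.769). For vit-2 the mutants read 13.14, 12.98 and 13.08, each above all 3 N2 controls, a difference of 0.34. The third N2 control, at 12.97, almost reached the lowest of them. The probe set of vit-2 was the only one of the family whose groups were apart in this comparison, beside 9.22% of all with the mutant higher.

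In eat-2 mutants, rapamycin gave a different result from that in N2 for every vit probe set. Here only vit-1 was called, and it was higher, beside 6.8% of all probe sets called higher and 7.03% lower. On rapamycin vit-1 read 12.07, 12.08 and 11.88, above each of the eat-2 controls given before. Its signal rose by 2.15 (SE 0.32, limma adjusted p = 0.00942), which is 4.43-fold. With all 15 arrays in a single fit the same difference had a limma adjusted p of 0.0602.

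The dim vit-4 probe set 172673_x_at read 7.44, 7.38 and 8.17 in the eat-2 controls and 8.46, 8.37 and 9.16 on rapamycin. The groups were apart, and the difference of 1.00 (SE 0.28) was not called (limma adjusted p = 0.0619). The other 8 probe sets differed by -0.12 to 0.19. For vit-5, with controls at 14.75, 14.40 and 14.74 and rapamycin arrays at 14.65, 14.62 and 14.64, the difference was 0.01 with a 95% interval from -0.25 to 0.27. For vit-2 it was -0.12, with an interval from -0.34 to 0.10. The N2 differences of these genes lay outside those intervals. The vit-5 values of both groups lay close to 14.86, the highest value on any array, and how far a rise there would be compressed was not tested.

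The dependence on strain was tested directly, as the rapamycin difference in eat-2 mutants minus that in N2, over the 12 arrays of the 4 groups. All 10 vit probe sets were called with a positive term, beside 12.1% of all probe sets. The terms ran from 0.87 to 3.55 with a median of 1.62, where the median over all was 0.04. For vit-2 the term was 0.99 (SE 0.20, limma adjusted p = 0.0084), for vit-5 it was 1.47 (SE 0.19, limma adjusted p = 0.00189), and for the vit-4 probe set 172134_x_at it was 1.75 (SE 0.17, limma adjusted p = 0.000602). The terms of vit-6 were 0.87 and 0.91. For vit-1 the term was 3.55 (SE 1.0, limma adjusted p = 0.0294), and it lost its call without any 1 of the 3 N2 rapamycin arrays, any 1 of the 3 eat-2 rapamycin arrays, or the second or the third eat-2 control, with adjusted p from 0.0535 to 0.0687. The call of vit-1 was also lost in the unmoderated test (adjusted p = 0.0676). The count of called probe sets stayed at 9 or 10 over all 12 fits that left out an array.

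The N2 rapamycin arrays could also be set against groups other than the N2 controls. Against N2 worms on allantoin all 10 vit probe sets were called lower, beside 33.5% of all probe sets, so that calls were frequent in this comparison. The differences ran from -3.27 to -1.14. The largest was that of vit-1, at 9.45 to 9.50 on rapamycin and 12.48 to 12.92 on allantoin (SE 0.12, limma adjusted p = 2.61e-07), or 9.63-fold. For vit-5 it was -1.80, for vit-2 -1.24 and for the vit-6 probe set 173411_s_at -1.14. The count stayed at 10 whichever array was left out.

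Between the strains on rapamycin, all 10 vit probe sets were called higher in eat-2 mutants, beside 32.1% of all probe sets, by 1.21 to 2.53. Again the arrays of both groups were apart for all 10, beside 38.5% of all probe sets. Against eat-2 controls, N2 worms on rapamycin were lower in 9 of 10 vit probe sets, beside 28% of all, and vit-1 differed by -0.39 (limma adjusted p = 0.319). These comparisons share their N2 rapamycin arrays with the comparison against the N2 controls and are no independent evidence of a low level there.

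Between eat-2 mutants on rapamycin and N2 controls, by contrast, no vit probe set was called, beside 0.169% of all probe sets called higher and 0.0222% lower. At an unadjusted p under 0.05, 5 of 10 were higher by limma, beside 9.46% of all. The differences ran from 0.22 to 1.56.

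The order of the 5 group means was the same at its lower end for all 10 vit probe sets, with N2 on rapamycin lowest. For the 8 bright probe sets of vit-2, vit-4, vit-5 and vit-6, the step from there to the next group, the N2 controls, was the only step between neighbours that was called, and the 4 remaining groups followed within 0.34 to 0.55 of each other. For vit-1 the order was N2 on rapamycin, eat-2 control, N2 control, eat-2 on rapamycin and N2 on allantoin. Only its last step was called, a difference of 0.73 (limma adjusted p = 0.0311), and 0.945% of all probe sets were called in that direction. This call was lost with all 15 arrays in a single fit (limma adjusted p = 0.749), unmoderated (0.165), and without the first or second allantoin array or the first or the third eat-2 rapamycin array (0.0786 to 0.136). N2 on allantoin exceeded the eat-2 controls in 2 of 10 vit probe sets, beside 11.9% of all: vit-1, by 2.88 (limma adjusted p = 0.00172), and 194239_x_at, by 0.42 (limma adjusted p = 0.0198). The second of these calls was lost unmoderated (adjusted p = 0.0724) and without the first or second allantoin array or the third eat-2 control (limma adjusted p from 0.0559 to 0.0825).

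Across the 15 arrays the vit probe sets went up and down together. Pearson correlations of the 45 pairs ran from 0.41 to 1.00 with a median of 0.96. The points share arrays, and the N2 rapamycin group sets much of the range, so these values are descriptions. Many pairs also read the same gene or, for vit-4 and vit-5, may bind the same transcripts, so they do not stand for separate genes. The correlations of vit-1 with the other 9 had a median of 0.58, and among those 9 the lowest was 0.72. Within groups, some arrays deviated in the same direction for most vit probe sets. The first N2 control was above its group mean for 10 of 10 vit probe sets, the second for 1 and the third for 3, and the second eat-2 control was above its mean for 0. The eat-2 rapamycin arrays were above theirs for 6, 7 and 2, with mean deviations of -0.01, 0.01 and 0.01.

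Other genes handle yolk once it is made. The gene lists from here on were chosen with earlier results of these data known, so counts over them are descriptions. Of 13 genes for uptake and processing of yolk, 1 was lower and 0 higher on rapamycin in N2, beside 3.67% and 5.71% of all probe sets. The called gene was rme-6, which encodes an activator of the endosomal GTPase RAB-5, with a difference of -1.01 (limma adjusted p = 0.0376). The median over the 13 was -0.06. The receptor gene rme-2 itself read 12.50, 11.63 and 11.71 in N2 controls, 11.40, 11.25 and 11.20 on rapamycin and 12.65, 12.71 and 12.77 on allantoin. Its rapamycin arrays were below all controls, with a difference of -0.67 that was not called (limma adjusted p = 0.119). In eat-2 mutants on rapamycin 1 of the 13 was called higher and 1 lower, beside 6.8% and 7.03% of all probe sets. There rme-2 rose by 0.51 (limma adjusted p = 0.0201), and apa-2, which encodes a clathrin adaptor subunit, fell by 0.51 (limma adjusted p = 0.0177). The strain by rapamycin term of rme-2 was 1.18 (limma adjusted p = 0.0146), and the only other called term of the list was 0.75 for rme-6 (limma adjusted p = 0.0458). Of all probe sets, 12.1% were called with a positive term.

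Of 14 genes that regulate yolk transcription, 2 were higher and 0 lower on rapamycin in N2, beside 5.71% and 3.67% of all probe sets. These were lin-29, a zinc finger factor of the larva-to-adult switch, by 0.95 (limma adjusted p = 0.0267), and the kinase gene sgk-1, which acts with TOR complex 2, by 0.66 (limma adjusted p = 0.0429). The homeobox gene unc-62, an activator of vit genes, differed by -0.12 (limma adjusted p = 0.624). In eat-2 mutants on rapamycin, 0 were higher and 2 lower, beside 6.8% and 7.03% of all. The 2 in these mutants were unc-62, by -0.47 (limma adjusted p = 0.0121), and lrp-2, a lipoprotein receptor relative, by -0.63 (limma adjusted p = 0.0254). In those worms vit-1 was higher, as given above. For the strain by rapamycin term, 2 of the 14 were called positive and 7 negative, beside 12.1% and 12.4% of all probe sets. The largest negative terms were those of sma-3, a Smad of the TGF-beta pathway (-1.37), pqm-1, a zinc finger factor (-0.92), and dbl-1, the ligand of the Smad pathway (-0.90), while age-1, the PI3 kinase, and akt-1 had terms of 0.51 and 0.48.

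Of 9 genes of the TOR pathway, 1 was lower on rapamycin in N2, beside 3.67% of all probe sets. The called gene was rict-1, the Rictor subunit of TOR complex 2, with -0.56 (limma adjusted p = 0.041). In eat-2 mutants 0 were called, beside 6.8% of all called higher and 7.03% lower. The gene of the TOR kinase, let-363, differed by 0.03 in N2 and -0.02 in the mutant. Of 10 genes for lipid supply and lipoprotein assembly, 1 was higher in N2 on rapamycin, beside 5.71% of all. It was the fatty acid synthase gene fasn-1, higher by 0.80 (limma adjusted p = 0.0412). In eat-2 mutants on rapamycin 2 of these 10 were called higher and 2 lower, beside 6.8% and 7.03% of all. The desaturase gene fat-7 rose by 2.01 and the elongase gene elo-2 by 0.54, while sbp-1, the SREBP factor, fell by 0.69 and pod-2, the acetyl-CoA carboxylase, by 0.42. The subunit gene dsc-4 of the microsomal transfer protein, which loads lipid on vitellogenin, differed by 0.15 in N2 (limma adjusted p = 0.539) and 0.49 in the mutant (limma adjusted p = 0.147). On allantoin in N2, and in eat-2 against N2, 0 genes of these 4 lists were called, where 0 and 9 of 22548 probe sets were called in all.

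Lists of tissue and stage markers were read on the same arrays. They too were chosen with earlier results of these data known, and their counts are descriptions. The intestine is the source of vitellogenin, and 11 of 12 listed genes of it had a probe set. On rapamycin in N2, 1 was higher and 2 lower, beside 5.71% and 3.67% of all probe sets. They were pept-1, a peptide transporter, by 1.08, mtl-2, a metallothionein, by -1.99, and ges-1, an esterase, by -0.61. The median over the 11 was 0.40, and at the study's threshold 3 were higher and 1 lower, beside 5.15% and 3.26% of all probe sets. In eat-2 mutants on rapamycin 2 were higher and 0 lower, beside 6.8% and 7.03% of all, with a median of -0.12. The 2 were the phosphatase gene pho-1, by 0.97, and the actin gene act-5, by 0.78. The summed intestine signal, of which the protease gene asp-1 (mean 13.71 on rapamycin and 13.99 in N2 controls) makes a large share, was 14.66 to 14.74 on rapamycin and 14.56 to 14.92 in N2 controls, and 15.11 to 15.37 in eat-2 controls and 15.14 to 15.34 in eat-2 on rapamycin. In N2 on allantoin, the N2 group with the highest mean of every vit probe set, it was lowest, at 13.93 to 14.48. All 11 genes had means above 5.14, below which the dimmest 25% lie, in every group, as had all 18 of the oocyte and germline list and all 12 of the moulting list. The part of these differences in the vit result was not tested.

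Oocytes are where yolk goes. Of 18 oocyte and germline genes, a list that also holds rme-2, 6 were lower and 0 higher on rapamycin in N2. Over all probe sets 3.67% were called lower and 5.71% higher. The median over the 18 was -0.80. Among the 6 were the oocyte maturation gene oma-2 (-1.16), the eggshell gene egg-3 (-1.15) and the chitin synthase gene chs-1 (-0.97). In eat-2 mutants on rapamycin 5 were higher and 0 lower, beside 6.8% and 7.03% of all, with a median of 0.33. The largest were rme-2, egg-1, which encodes an egg surface protein (0.46), and pie-1, a germline determinant (0.44). The strain by rapamycin term was called positive for 15 of 18, beside 12.1% of all. The summed signal was 15.70 to 15.71 in N2 on rapamycin, below the 16.06 to 16.73 of N2 controls, and 16.89 to 16.94 in eat-2 on rapamycin, above the 16.56 to 16.73 of eat-2 controls. On allantoin it was 16.81 to 16.88.

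Sperm and moulting genes ran the other way. Of 11 sperm genes measured of 12 listed, 2 were higher in N2 on rapamycin, beside 5.71% of all probe sets, and the median was 1.63. The 2 were fog-3, which directs germ cells to the sperm fate, by 2.18, and spe-4, a presenilin relative of sperm organelles, by 1.65. The strain by rapamycin term was called negative for 10 of the 11, beside 12.4% of all. In eat-2 mutants on rapamycin msp-53, a major sperm protein gene, was lower by 2.26 and the median was -1.31. Their summed signal was 14.59 to 15.03 in N2 on rapamycin, 12.18 to 14.15 in N2 controls, 10.59 to 11.78 on allantoin, 11.83 to 13.66 in eat-2 controls and 10.53 to 10.87 in eat-2 on rapamycin. The first N2 control, which had the highest vit signal of its group, had the lowest sperm signal of it. The second eat-2 control, with the lowest vit signal of its group, had the highest sperm signal. The drug groups were mixed. The array of lowest vit signal had the highest sperm signal on allantoin (11.78) and in eat-2 on rapamycin (10.87). In N2 on rapamycin it read 14.93, below the 15.03 of the third array. On allantoin the array of highest vit signal read 11.59, above the 10.59 of the second.

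Of 12 genes of moulting and larval cuticle, 9 were higher and 0 lower in N2 on rapamycin, beside 5.71% and 3.67% of all probe sets. The median was 2.21, and the largest differences were those of the collagen genes col-138 (3.39) and col-38 (3.04) and ptr-4, a patched-related gene needed for moulting (2.97). In eat-2 mutants on rapamycin 0 were higher and 3 lower, beside 6.8% and 7.03% of all. The 3 were the collagen gene dpy-17 (-1.71), the protease inhibitor gene mlt-11 (-1.28) and noah-2, a cuticle-associated gene (-0.91). The summed signal was 13.87 to 14.19 in N2 on rapamycin and 10.98 to 12.80 in the other 12 arrays. Of 8 embryo genes, 4 were above the dim bound in N2 on rapamycin and 6 in each other group. In either rapamycin comparison 0 of them were called, beside the same shares of all probe sets. Their summed signal was 8.30 to 8.45 in N2 on rapamycin and 8.57 to 9.41 in N2 controls. The part of the germline, of sperm and of the stage of the worms in the vit differences was not tested. On allantoin, and in eat-2 against N2, 0 genes of these 5 marker lists were called, in comparisons where 0 and 9 of 22548 probe sets were. On allantoin the sperm list had a median of -2.0, and 7 of its 11 genes were lower at the study's threshold, beside 3.16% of all.

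**Figure D2:**
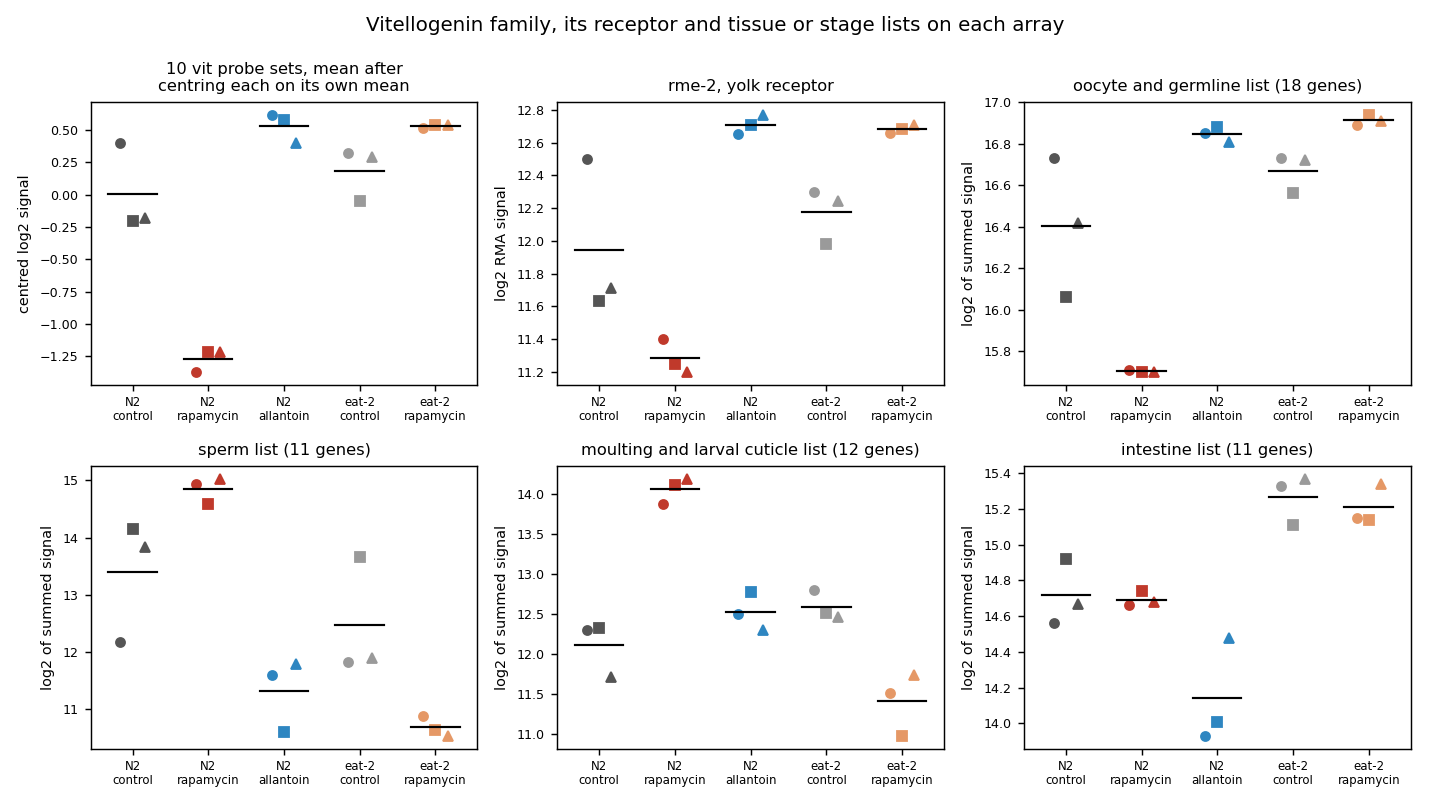
Values on each of the 15 arrays by group: the mean of the 10 vit probe sets after centring each on its own mean, the signal of the receptor gene rme-2, and the log2 of the summed signal of 4 gene lists, with symbols and lines as in the plot of the vit probe sets. In N2 on rapamycin the vit mean, rme-2 and the oocyte list (15.70 to 15.71) are at their lowest and the sperm (14.59 to 15.03) and moulting (13.87 to 14.19) lists at their highest, while the intestine list (14.66 to 14.74) lies inside the range of the N2 controls.

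The probe sets whose values over the 15 arrays were most like the mean of the vit family were sought among 15860 probe sets of 1 other gene above the dimmest 25%. The nearest were those of T24D1.3 (Pearson r = 0.983), W05F2.3 (0.982), vet-1 (0.979), C27C12.3 (0.978) and spr-5, a histone demethylase (0.977). Their group means were lowest in N2 on rapamycin, as for vet-1 at 6.40 there and 8.42 in N2 controls, and highest on allantoin or in eat-2 on rapamycin. The most opposite were moa-1 (-0.989), F07D3.3 (-0.988) and spe-4 (-0.988), which read 7.65, 7.69 and 8.44 in N2 on rapamycin and 6.25, 5.62 and 6.79 in N2 controls. These values describe likeness over 5 groups of 3 arrays and carry no test.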

How the data were processed

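Whole-worm total RNA of 5 groups, with 3 samples in each, was measured on Affymetrix GeneChip arrays for C. elegans. The values deposited by the authors are log2 signals from RMA as run in Expression Console, without versions or a genome build being given in the sources used here. RMA subtracts background, sets all arrays to a common distribution and summarises the probes of a probe set, on the premise that arrays do not differ as a whole. Genes come from the platform annotation, and 77 control probe sets were left out. All 15 value columns were matched to samples by their labels (0 unmatched).

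The 10 vit probe sets were chosen by symbol alone. Members and gene lists were chosen with earlier results of these data known. Pairs of groups were compared with limma 3.58.1 in R 4.3.3 on their own 6 arrays, as the study compares conditions in pairs, and the strain by rapamycin term on 12. Tests were two-sided and adjusted by Benjamini-Hochberg over 22548 probe sets. Each listed gene was read by its single-gene probe set of highest mean. Lists are described by counts and medians, with no test of a list. Named are all vit probe sets, up to 3 called members of a list in each direction, rme-2, unc-62, let-363 and dsc-4, and the 5 probe sets most like the vit mean and the 3 most opposite. Each comparison was refitted on all 15 arrays, with a replicate block, median centring, cyclic loess, array weights, without the dimmest 25%, unmoderated, and without each array. Each group has 3 arrays, and this number limits the precision. The tests were tried on simulated data. Sequences are not used here. Chromosomes and the order of genes come from the RefSeq gene table, and no coordinates are printed.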

Additional observations from a re-analysis of the deposited data

Results flagged for a closer look

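The rapamycin difference depended on strain for each vit probe set by a test of the interaction itself (limma adjusted p under 0.05). For vit-1 that call was lost in 9 of 19 alternatives, among them the unmoderated test (adjusted p = 0.0676). On the log2 scale, the difference in eat-2 mutants minus that in N2 was 3.55 for vit-1 (177065_at) and 0.99 for vit-2 (191323_at). It was 1.61 (171723_x_at), 1.75 (172134_x_at) and 1.65 (172673_x_at) for vit-4, and 1.62 (172133_x_at) and 1.78 (194239_x_at) for the probe sets of vit-4 and vit-5. It was 1.47 (172696_x_at) for vit-5, and 0.87 (173411_s_at) and 0.91 (190649_at) for vit-6. In N2 the rapamycin arrays were below the controls by 0.65 to 1.65 in their means, and in eat-2 mutants 8 of 10 probe sets differed by -0.12 to 0.19. The term was also called positive for 15 of 18 oocyte and germline genes, beside 12.1% of all probe sets. It was called negative for 10 of 11 sperm and 9 of 12 moulting genes, beside 12.4% of all. These lists were chosen with earlier results of these data known, so the counts are descriptions. The part of these genes in the vit terms was not tested.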

How the results depend on the processing

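Of 1490 values of single vit probe sets under alternatives, 1384 kept their direction and their side of the threshold, 62 lost and 18 gained a call, and 26 changed sign. For rapamycin in N2 the 8 calls became 1 with a replicate block, in a fit that called 156 of 22548 probe sets. The 8 became 0 unmoderated and 0 to 9 without 1 array, while the median stayed between -1.54 and -1.20. For allantoin in N2 the 0 calls became 2 in the fit of all 15 arrays and 0 to 5 without 1 array. For rapamycin in eat-2 the 1 call became 0 in the fit of all 15 arrays and unmoderated, and 2 with the block or with median centring, and the median of 0.07 ran from -0.02 to 0.12 without 1 array. The 10 calls of the interaction became 9 or 10 without 1 array and 7 to 10 otherwise. Median centring shifts all differences by 0.23 for eat-2 against N2 on rapamycin, by -0.20 for rapamycin against allantoin and by 0.18 for the interaction, which made the vit medians 2.10 and -2.05 in the first 2, and single-gene probe sets alone made the last of these -1.58. The labels do not say whether arrays of the same replicate number belong together. Deviations of same-numbered arrays correlated between -0.35 and 0.45, with 9 of 30 over 0.1. For eat-2 against N2 the value was 0.45 for replicate 1 and for replicate 2, and -0.16 for replicate 3. With 3 arrays in a group, these values cannot decide whether same-numbered arrays share a batch. The sign changes were of uncalled differences near 0. For rapamycin in eat-2 they gave 0.05 (vit-6, centring), 0, -0.06 and -0.07 (vit-4, vit-5 and vit-6, array weights), and, without 1 array, -0.04 to 0.11 for vit-4, -0.11 to 0.07 for vit-5, -0.11 to 0.09 (0 among them) and -0.16 to 0.07 (0 and 0.01 among them) for the vit-6 probe sets. For vit-2 on allantoin it was -0.05 without the second N2 control and up to 0.26 without the third. For allantoin in N2 against eat-2 controls they gave -0.03 (loess) and -0.08 (array weights) for vit-5, and, without 1 array, -0.11 to 0.06 for vit-5, -0.18 to 0.02 for vit-6, -0.02 to 0.13 and, for 172673_x_at, -0.09 to 0.45 (-0.01 among them) for vit-4. For eat-2 on rapamycin against N2 on allantoin, vit-4 gave 0.01 each time. The cause was not tested.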
